A study of Homo sapiens with 16 samples.

Results

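The comparison described here is the response of U937 cells to lipopolysaccharide (LPS), the outer membrane glycolipid of Gram-negative bacteria. U937 is a human monocytic line that was established from a histiocytic lymphoma. The LPS group consisted of wild-type U937 cells given LPS at 200 ng/ml for 4 h (2 libraries), and its control group of wild-type untreated U937 cells (2 libraries). These are 4 of the 16 libraries of a study of 4 immune cancer cell lines with and without a stimulus, in 8 groups of 2. The 4 libraries were chosen by their titles. Expression was measured by SmartSeq2, an oligo-dT primed RNA sequencing protocol, and is given in TPM (transcripts per 1000000, a level per transcript length). Of the 27311 genes in the files, 11211 reached 1 TPM or more in 2 or more of the 4 libraries, and the results below concern these genes unless stated. The labels do not say whether the 2 libraries of a group came from separate cultures, so p-values measure the spread between libraries, which may be technical. Unless stated, that spread was estimated within the 8 groups of all 16 libraries together, not from the U937 libraries alone.

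Monocytes recognise LPS through TLR4 and its partner MD-2 (encoded by LY96), to which the co-receptor CD14 delivers LPS. The adaptors MYD88 and TICAM1 then lead to release of NF-kB from its inhibitor IkB-alpha (encoded by NFKBIA) and to activation of MAP kinases and interferon regulatory factors. In monocytes the genes that follow include chemokines, cytokines, and inhibitors of the pathway itself such as NFKBIA and TNFAIP3.

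The TPM values of a library are whole multiples of the value of 1 read, which gives the depth. The LPS libraries held 6100230 and 7624995 reads, against 4125240 and 7333596 reads in the untreated libraries, and between 13087 and 13688 genes were above 0 in each. The first LPS library stood apart. On the log2(TPM + 1) scale its difference from the mean of the untreated libraries had a median of -0.77 over all genes, against -0.03 for the second LPS library. The SD across genes of the difference between the LPS libraries was 0.95, against 0.37 between the untreated libraries. Of 27 monocytic marker genes, 22 averaged at least 1 TPM in the untreated cells. The summed level of the 27 was 12446 and 11319 TPM in the LPS libraries, against 10421 and 10807 TPM in the untreated libraries. Most of each sum came from the granule protease genes CTSG and ELANE. Of the other markers, CD14 was listed at 0 throughout, and MPO and ITGAM reached at most 0.66 and 1.84 TPM. T cell, B cell, erythroid and stromal or epithelial markers each summed to at most 30.2 TPM in every library, and CD3E, MS4A1 and HBB were listed at 0 throughout. The NK cell markers summed to between 839 and 1071 TPM, most of it from NKG7.

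The genes that passed the test as higher after LPS encoded 2 chemokines and a hyaluronan-binding protein. In a limma fit on log2(TPM + 1), with Benjamini-Hochberg adjustment over all genes and a threshold of 0.05, 3 genes were called higher (0.0268% of those tested). These were CCL4, CXCL10 and TNFAIP6. All 3 passed the filter only with the help of an LPS library, which favours higher values after LPS. In bulk RNA, a higher level per cell and a larger share of responding cells cannot be told apart. A voom fit on the recovered reads also called these 3 higher and 0 lower. At an unadjusted p under 0.05 the limma fit on log2(TPM + 1) gave 324 higher and 1743 lower genes. The median log2 change of all genes was -0.42.

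CCL4 (MIP-1beta), a chemokine that attracts monocytes and T cells, had 53.2 and 25.3 TPM in the LPS libraries, from 131 and 60 reads, and was listed at 0 in both untreated libraries. Set against a floor of 3 reads in each untreated library, the mean of its LPS libraries was at least 20.9-fold higher (limma adjusted p = 2.76e-05). This bound holds for the mean and not for each LPS library. CXCL10 (IP-10), an interferon-inducible chemokine that attracts T cells through CXCR3, had 46.1 and 44.3 TPM after LPS, from 207 and 191 reads, against 0 and 1.48 TPM in untreated cells. Its log2 change was 4.87 (SE 0.33, limma adjusted p = 2.76e-05), and the groups did not overlap. TNFAIP6 (TSG-6), a secreted hyaluronan-binding protein induced by TNF and IL-1, had 4.56 and 5.74 TPM after LPS, from 24 and 29 reads, and was listed at 0 in both untreated libraries. By the same floor the mean of its LPS libraries was at least 5.86-fold higher (limma adjusted p = 0.0096). The call of TNFAIP6 was lost without the first LPS library (adjusted p = 0.062), without the first untreated library (0.16) and without the second (0.11), whereas CCL4 and CXCL10 passed the threshold when any 1 of the 4 libraries was left out. With a weight estimated for each library, CCL4 alone was called, and the calls of CXCL10 (adjusted p = 0.38) and TNFAIP6 (0.71) were lost. With each library's trend with transcript length removed, CCL4 and CXCL10 were called higher and TNFAIP6 was not (0.21). Fitted on the 4 U937 libraries alone, limma called 0 genes, with 61 higher and 206 lower at an unadjusted p under 0.05. In that fit the SE was 0.51 for CCL4, 0.57 for CXCL10 and 0.36 for TNFAIP6. With the spread of all 16 libraries it was 0.37, 0.33 and 0.32.

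The single gene called lower (0.00892% of those tested) was MIR221, the gene of the microRNA miR-221, at 0 reads in both LPS libraries against 1 and 2 reads in the untreated libraries. Its call therefore rests on 3 reads in all. It is a small RNA gene and was named after its values were seen. MIR221 passed the filter only through the untreated libraries, which favours lower values after LPS.

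As a second measure, with no test, genes were counted where both LPS libraries lay at least 2-fold above both untreated libraries on the log2(TPM + 1) scale, or below them. There were 22 such genes higher (0.196%) and 53 lower (0.473%). Of the 22, 7 had at least 1 TPM in both untreated libraries, and the others passed the filter with the help of an LPS library. Under median-of-ratios scaling, which moved the median log2 change of all genes to -0.01, the counts were 35 higher and 31 lower. With quantile normalization they were 30 and 30. All 22 of the higher genes remained under both scalings, and 31 and 30 of the lower ones. The first LPS library taken by itself was 2-fold above both untreated libraries for 333 genes and 2-fold below for 4225, whereas the second was above for 47 and below for 76.

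**Figure D1:**
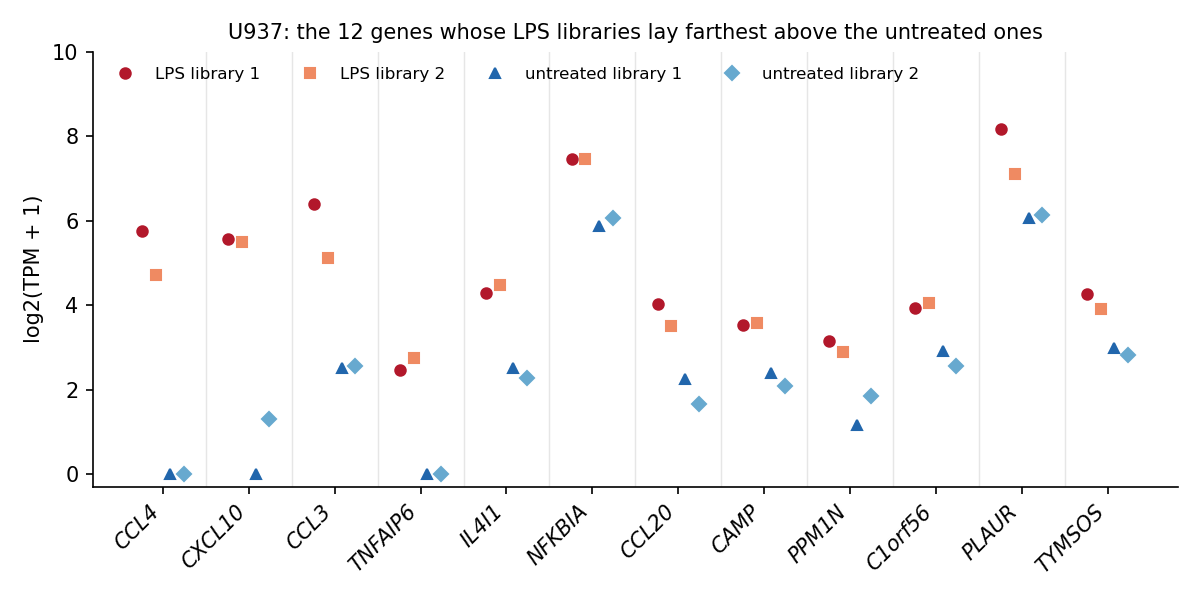
Level, as log2(TPM + 1), of the 12 genes whose LPS libraries lay farthest above the untreated ones, among genes with a mean of at least 5 TPM after LPS. Each point is 1 library, and for all 12 genes both LPS points lie above both untreated points. CCL4 and TNFAIP6 are at 0 in both untreated libraries.

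Beside the called genes, the 12 genes with the widest separation included other chemokines, an NF-kB inhibitor and a protease receptor. CCL3 (MIP-1alpha), a chemokine that attracts monocytes and other leukocytes, had 83.6 and 33.6 TPM in the LPS libraries, against 4.70 and 4.91 TPM in the untreated ones. Its log2 change of 3.22 (SE 0.52) did not pass the adjustment (limma adjusted p = 0.076). Reads were aligned uniquely, and the near-identical copies CCL3L1, CCL3L3, CCL4L1 and CCL4L2 were listed at 0 in all 4 libraries, so the levels of CCL3 and CCL4 are uncertain. CCL20, the ligand of CCR6, had 15.4 and 10.4 TPM after LPS, against 3.81 and 2.14 TPM in untreated cells.

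NFKBIA encodes IkB-alpha, which holds NF-kB in the cytoplasm and is itself a target of NF-kB. It had 175 and 174 TPM in the LPS libraries, against 57.3 and 65.6 TPM in the untreated ones. The LPS libraries were almost equal and well above both untreated libraries. The log2 change was 1.49 (SE 0.27), which did not pass the adjustment as deposited (limma adjusted p = 0.14) but did under median-of-ratios scaling (0.0314) and quantile normalization (0.0156). With the length trend of each library removed the adjusted p was 0.324. PLAUR, the receptor of the protease urokinase, had 286 and 137 TPM after LPS, against 65.3 and 68.7 TPM in untreated cells. IL4I1, a secreted L-amino acid oxidase, had 18.4 and 21.1 TPM after LPS, against 4.71 and 3.85 TPM in untreated cells. CAMP, which encodes the antimicrobial peptide LL-37, had 10.54 and 10.97 TPM after LPS, against 4.30 and 3.23 TPM in untreated cells. For PLAUR, IL4I1 and CAMP the groups did not overlap, and limma adjusted p-values were 0.27. The remaining members of the 12 were PPM1N, C1orf56 and TYMSOS, with at most 18.3 TPM after LPS. When each library's trend with transcript length was removed, with its own level kept, the groups of CAMP overlapped, and 5 of the 12 were apart by 2-fold, against 10 as deposited. NFKBIA, CCL20, CAMP, PPM1N and C1orf56 were the 5 that no longer were.

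Promoter sequences were taken from RefSeq (GRCh38.p14), for the bases upstream of the annotated gene start, because these were searched for the motif of NF-kB. They are shown for CXCL10, NFKBIA and CCL20, which were higher in both LPS libraries, and for CXCL8 and TNFAIP3, which were higher in the second alone. Only genes with a match are shown. Each is written 5′ to 3′ on the gene's own strand up to its start, and capitals mark matches to the NF-kB motif GGNNNTTCC on either strand.
CXCL10 (chr4:76023498-76023747, minus strand): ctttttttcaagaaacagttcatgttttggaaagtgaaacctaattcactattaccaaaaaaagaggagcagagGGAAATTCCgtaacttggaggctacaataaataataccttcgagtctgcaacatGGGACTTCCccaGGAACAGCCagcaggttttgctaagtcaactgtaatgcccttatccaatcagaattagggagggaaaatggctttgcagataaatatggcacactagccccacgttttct
NFKBIA (chr14:35404750-35404999, minus strand): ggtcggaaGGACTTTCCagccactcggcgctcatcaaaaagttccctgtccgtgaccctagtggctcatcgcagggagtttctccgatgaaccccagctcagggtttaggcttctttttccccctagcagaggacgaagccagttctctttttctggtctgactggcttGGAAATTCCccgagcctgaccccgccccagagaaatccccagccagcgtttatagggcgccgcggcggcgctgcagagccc
CCL20 (chr2:227813712-227813841, plus strand): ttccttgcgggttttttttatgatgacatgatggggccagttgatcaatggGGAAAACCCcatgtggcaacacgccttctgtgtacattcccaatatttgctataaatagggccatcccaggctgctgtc
CXCL8 (chr4:73740439-73740568, plus strand): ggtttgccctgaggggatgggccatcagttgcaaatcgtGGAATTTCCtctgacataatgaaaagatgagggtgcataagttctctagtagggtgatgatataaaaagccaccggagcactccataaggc
TNFAIP3 (chr6:137867129-137867258, plus strand): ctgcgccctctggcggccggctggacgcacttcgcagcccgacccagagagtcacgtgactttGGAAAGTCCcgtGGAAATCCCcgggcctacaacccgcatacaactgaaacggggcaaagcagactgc
Within 250 bases upstream, CXCL10 held 3 matches, beginning 176, 122 and 110 bases before the start. NFKBIA held 2, at 242 and 81 bases, CCL20 had 1 at 79 bases, CXCL8 had 1 at 91 bases, and TNFAIP3 had 2, at 67 and 55 bases. The interferon-stimulated response element GAAANNGAA, also searched on both strands, was found once in CXCL10, at 221 bases, and once in NFKBIA, at 139 bases. Of the 12 genes farthest above their controls, 10 had a promoter in the table, and 4 of these held the NF-kB motif and 3 the response element. The 4 were CXCL10, IL4I1, NFKBIA and CCL20. The others searched, TNFAIP6 and CCL3 among them, held no match to the NF-kB motif. Of the 12 farthest below, 8 had one, and 2 held the NF-kB motif and 1 the response element. Of all 27305 genes in the table, 20.2% held the NF-kB motif and 8.41% the response element in any window listed for them. A match describes the letters only and does not show that a factor binds there.

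Of the 16 lists examined, chemokines held the most members called or apart by 2-fold. Of 33 chemokine genes listed, 13 passed the filter, and 5 of those needed an LPS library to pass it (CCL1, CCL4, CXCL2, CXCL10 and CXCL11), which favours higher values after LPS. Of the other 8, with at least 1 TPM in both untreated libraries, 5 were above both untreated libraries in both LPS libraries (62.5%) and 0 were below. Among all 10724 genes of that kind the shares were 12.5% higher and 38.2% lower, and among all 11211 genes 12.9% and 36.6%. These shares, here and for the lists below, were not matched for transcript length. All of the 8 but CXCL16 were in the shortest of 5 length bins. The median difference of that bin was 0.35 in the first LPS library and 0.07 in the second, against -0.77 and -0.03 over all 11211 genes. At an unadjusted p under 0.05, 4 of the 8 were higher. The separation reached 2-fold for 2 of the 8, CCL3 and CCL20, and for 5 of the 13, which were CCL1, CCL3, CCL4, CCL20 and CXCL10. All 5 did so under median-of-ratios scaling and quantile normalization, and CCL3, CCL4 and CXCL10 also did when the length trend of each library was removed. Over the 8, the median difference from the untreated mean was 1.01 in the first LPS library and 0.82 in the second, on the log2(TPM + 1) scale, against -0.82 and -0.04 for all genes of that kind. Measured from the median of genes in the same of 5 bins of transcript length, it was 0.66 and 0.75. The median fitted log2 change of the 8 was 0.99.

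The most abundant chemokine was CCL2 (MCP-1), which recruits monocytes through CCR2, at 1182 and 565 TPM in the LPS libraries against 275 and 314 TPM in the untreated ones. Its groups did not overlap, but the LPS libraries differed from each other by about as much as the second differed from the controls, and the log2 change of 1.47 had an SE of 0.57 (limma adjusted p = 0.27). CCL1, the ligand of CCR8, was at 2.73 and 3.79 TPM after LPS, against 0 and 0.51 TPM in untreated cells, or 6 and 8 reads against 0 and 1. CXCL2, a ligand of the neutrophil receptor CXCR2, had 8.999 and 8.197 TPM after LPS, against 4.88 and 0.75 TPM in untreated cells. CCL5 (RANTES) was already abundant, with 319 and 170 TPM after LPS against 139 and 154 TPM without it. CXCL16 overlapped between the groups, with 2.14 and 4.11 TPM after LPS against 4.00 and 4.25 TPM in untreated cells. CXCL9, a ligand of CXCR3 like CXCL10, stayed below the filter, at 0.20 and 0 TPM after LPS and 0 in both untreated libraries.

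**Figure D2:**
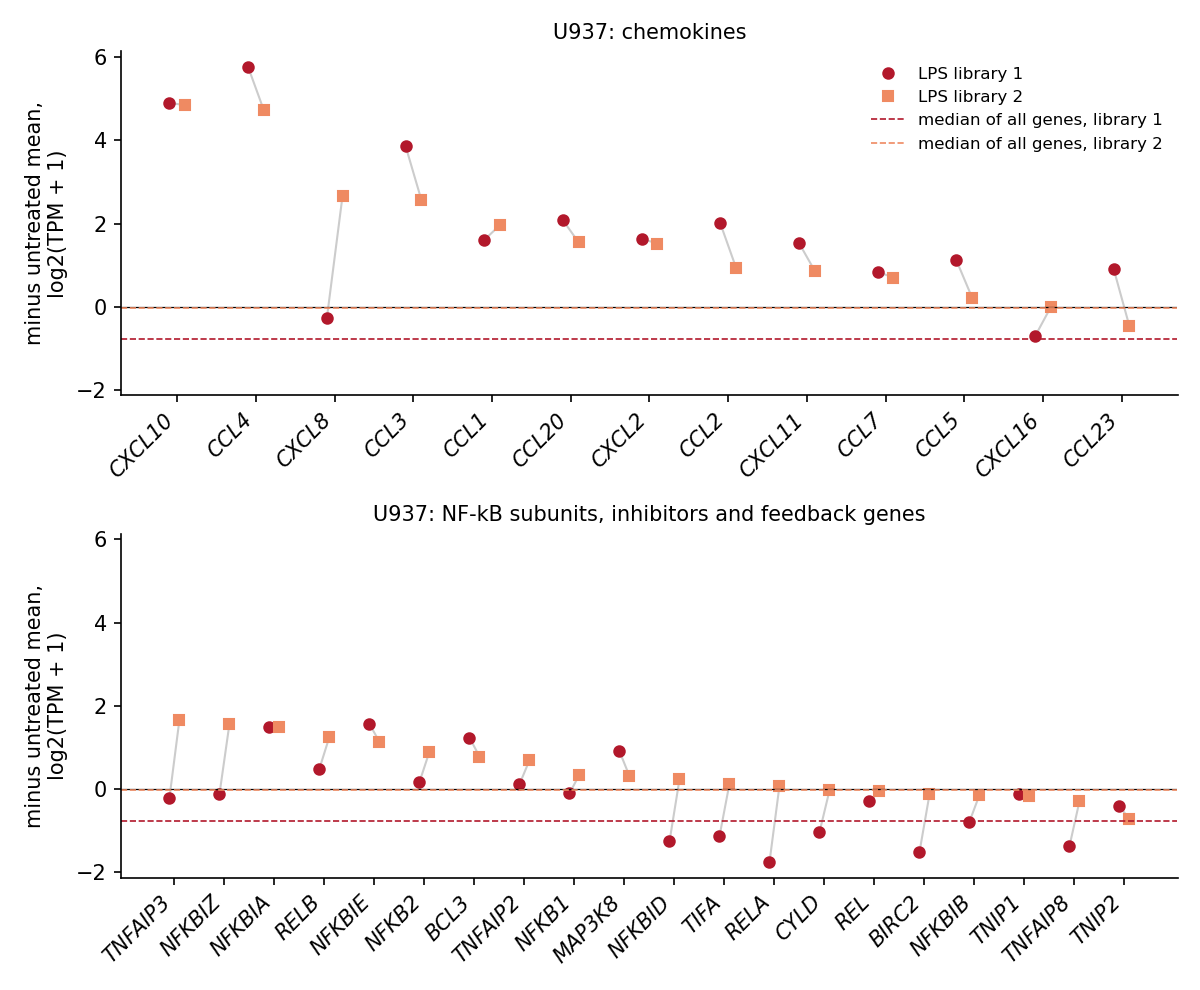
Difference of each LPS library from the mean of the untreated libraries, on the log2(TPM + 1) scale, for the 13 chemokines and 20 NF-kB pathway genes above the filter, ordered by the second LPS library. Dashed lines are the medians of all genes, -0.77 for the first library and -0.03 for the second, and the long connecting lines of CXCL8, TNFAIP3 and NFKBIZ mark genes far higher in the second library than in the first.

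Among subunits, inhibitors and feedback genes of NF-kB, members did not move one way. Of 24 genes listed, 20 passed the filter, and 2 of these needed an LPS library to do so. By limma and by voom 0 were called, with 3 higher and 0 lower at an unadjusted p under 0.05. Of the 18 with at least 1 TPM in both untreated libraries, 4 were higher in both LPS libraries and 4 lower in both (22.2% each), against 12.5% and 38.2% of all genes of that kind. NFKBIA was the one member apart by 2-fold, and with the length trend removed 0 were. The median difference of the 18 was -0.25 in the first LPS library and 0.18 in the second, and measured from genes of like length it was 0.80 and 0.20. NFKBIE (IkB-epsilon) had 37.5 and 27.6 TPM after LPS, against 9.73 and 14.8 TPM in untreated cells, with no overlap. RELA, the p65 subunit of NF-kB, had 10.1 and 38.6 TPM after LPS, against 34.8 and 37.9 TPM in untreated cells, so that only the first LPS library was apart. RELB, another subunit, had 3.81 and 7.18 TPM after LPS, against 1.88 and 3.04 TPM in untreated cells.

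In TPM as deposited, several known LPS targets were above both controls in the second LPS library and not in the first. In all, 25 genes (0.223%) were 2-fold above both untreated libraries in the second LPS library and not in the first. They were examined after their values were seen. CXCL8 (interleukin-8), a neutrophil chemoattractant, had 4.92 and 44.6 TPM after LPS, against 5.95 and 6.34 TPM in untreated cells. The first LPS library thus lay below both controls and the second above them. TNFAIP3 (A20), a ubiquitin-editing enzyme that limits NF-kB, had 4.23 and 18.2 TPM after LPS, against 5.98 and 4.19 TPM in untreated cells. ZC3H12A (Regnase-1), an endonuclease that degrades cytokine mRNAs, had 4.54 and 32.0 TPM after LPS, against 7.25 and 7.51 TPM in untreated cells. ICAM1, an adhesion molecule for leukocyte integrins, had 24.8 and 116 TPM after LPS, against 52.2 and 47.8 TPM in untreated cells. IRAK2, a kinase downstream of MYD88, had 4.84 and 27.1 TPM after LPS, against 9.24 and 12.8 TPM in untreated cells. NFKBIZ, a nuclear IkB protein, had 1.23 and 6.18 TPM after LPS, against 1.91 and 1.00 TPM in untreated cells. The groups overlap for all 6, and the fitted log2 changes of CXCL8 and TNFAIP3 turned negative, at -0.27 and -0.20, when the second LPS library was left out. Measured from the median of genes of like length, the differences in the first and second LPS library were 1.00 and 1.64 for NFKBIZ, 0.91 and 1.75 for TNFAIP3 and 0.50 and 2.01 for ZC3H12A. They were 0.12 and 1.23 for ICAM1 and 0.07 and 1.27 for IRAK2. On that scale CXCL8 alone of the 6 was below genes of like length in the first library, at -0.62 against 2.60 in the second.

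**Figure D3:**
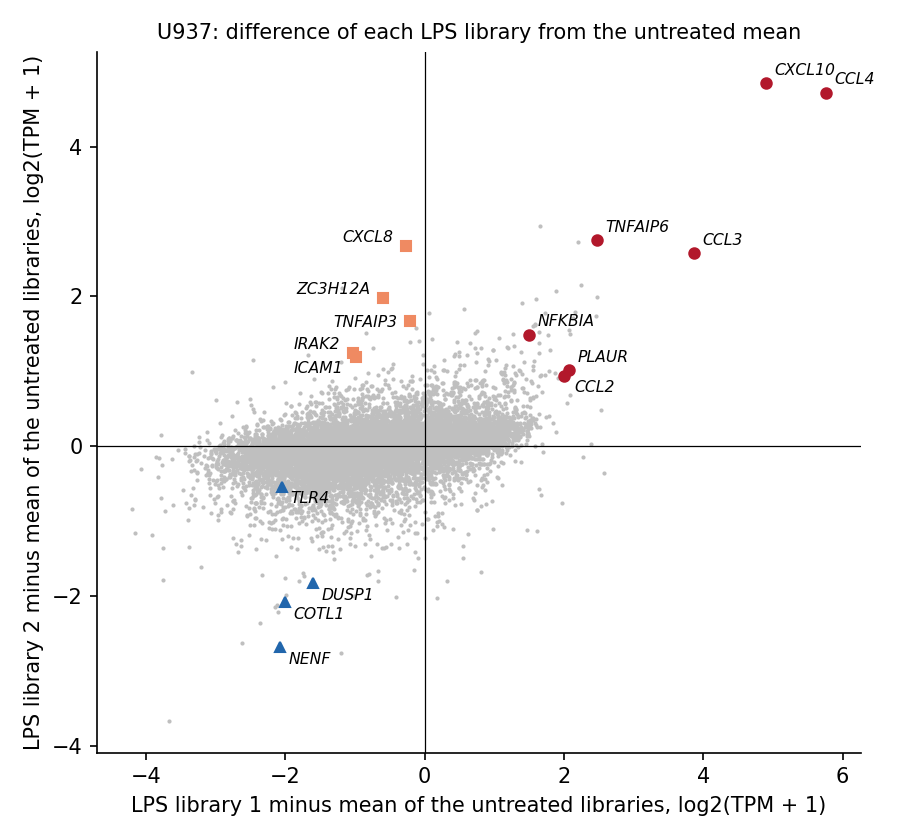
Difference from the mean of the untreated libraries in LPS library 1 (horizontal) and LPS library 2 (vertical), log2(TPM + 1), for the 11211 genes (grey). CCL4, CXCL10 and CCL3 are far above 0 in both, CXCL8, ZC3H12A, TNFAIP3, IRAK2 and ICAM1 (squares) only in the second, and COTL1, NENF and DUSP1 (triangles) lie below 0 in both, as does TLR4.

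Of the classical inflammatory cytokines, TNF and IL1B were above both controls in both LPS libraries without passing the test. TNF had 1.27 and 2.64 TPM after LPS, against 0.90 and 0.74 TPM in untreated cells, with 61 and 122 reads against 22 and 32. Both LPS libraries were above both controls, with a log2 change of 0.66 (SE 0.41, limma adjusted p = 0.32). The value of 1 read of TNF corresponded to a length of 13041 bases, 7.78 times its longest GENCODE transcript of 1676 bases, whereas the 5th and 95th percentiles of all genes were 0.42 and 1.49 times. Its TPM level is therefore not comparable with that of other genes, and the added pseudocount of 1 shrinks its log2 change. The voom fit on recovered reads gave a log2 change of 1.40 for TNF (adjusted p = 0.34). IL1B, the precursor of interleukin-1 beta, had 10.3 and 9.22 TPM after LPS, against 2.85 and 5.82 TPM in untreated cells. Its log2 change was 1.07 (SE 0.38, limma adjusted p = 0.27), with no overlap. IL6 stayed below the filter, with 0 and 0.47 TPM after LPS and 0 TPM in both untreated libraries. IFNB1, IL12B and CSF2 were listed at 0 in all 4, so these were not detectable beyond the 3 reads that a count of 0 allows. Of 31 cytokine genes listed, 14 passed the filter, 3 of them with the help of an LPS library, and 0 were apart by 2-fold. Of the other 11, 3 were higher in both LPS libraries (27.3%) and 2 lower (18.2%), against 12.5% and 38.2% of all genes with at least 1 TPM in both untreated libraries. By limma and by voom 0 were called, with 2 higher and 0 lower at an unadjusted p under 0.05. TNFSF13B (BAFF), a B cell survival factor, was the most abundant, with 579 and 293 TPM after LPS against 238 and 257 TPM in untreated cells.

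The receptor itself was present at a modest level. TLR4 had 6.23 and 19.4 TPM after LPS, against 30.6 and 26.9 TPM in untreated cells. Both LPS libraries were below both controls, the first far more so, and the log2 change of -1.29 (SE 0.38) did not pass the adjustment (limma adjusted p = 0.27). LY96 had 18.9 and 10.995 TPM after LPS, against 14.8 and 10.7 TPM in untreated cells, which overlap. CD14 was listed at 0 in all 4 libraries and so was not detectable at this depth. MYD88 had 46.8 and 167 TPM after LPS, against 169 and 192 TPM in untreated cells. Of 29 genes of the receptor and its adaptors, 26 passed the filter, 0 were higher in both LPS libraries, and 9 were lower in both (34.6%), against 36.6% of all genes. By limma and by voom 0 were called, with 0 higher and 4 lower at an unadjusted p under 0.05.

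The interferon-stimulated gene list, which does not hold CXCL10, had medians near those of all genes, -0.65 in the first LPS library and 0.04 in the second. Of 48 listed, 39 passed the filter, 4 of them with the help of an LPS library. Of the other 35, 3 were higher (8.57%) and 8 lower (22.9%) in both LPS libraries, against 12.5% and 38.2% of all genes with at least 1 TPM in both untreated libraries. By limma and by voom 0 were called, with 1 higher and 2 lower at an unadjusted p under 0.05, and 0 were apart by 2-fold. IFIT1, an RNA-binding antiviral protein, had 0.92 and 1.67 TPM after LPS, against 1.36 and 0.89 TPM in untreated cells. ISG15, a ubiquitin-like protein, had 163 and 63.9 TPM after LPS, against 65.8 and 72.6 TPM in untreated cells, so the first LPS library alone was high.

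The other lists had at most 1 member apart by 2-fold. Among MAP kinase feedback and mRNA decay genes (21 of 26 above the filter) it was DUSP1, a phosphatase of p38 and JNK, which had 1.47 and 1.11 TPM after LPS against 5.54 and 7.57 TPM in untreated cells. TNFAIP6 was the one among 26 adhesion, migration and coagulation genes. No member was apart among immediate-early genes, cytokine signalling inhibitors, metabolic and antioxidant enzymes, antigen presentation genes, inflammasome and cell death genes, azurophil granule proteins, myeloid transcription factors, cell cycle genes or housekeeping genes. SOD2, a mitochondrial superoxide dismutase and NF-kB target, had 39.4 and 38.0 TPM after LPS, against 24.4 and 26.6 TPM in untreated cells, with no overlap (log2 change 0.59, SE 0.27, limma adjusted p = 0.27). The granule proteases CTSG (cathepsin G) and ELANE (neutrophil elastase) were among the most abundant transcripts. CTSG had 7142 and 4975 TPM after LPS, against 4716 and 4656 TPM in untreated cells. ELANE had 2766 and 3061 TPM after LPS, against 2600 and 2835 TPM in untreated cells. The azurophil granule list had median differences of 0.03 and 0.02 in the LPS libraries. In the housekeeping list they were -1.04 and -0.08, and ACTB (beta-actin) had 3779 and 8785 TPM after LPS, against 9599 and 8885 TPM in untreated cells. Of 19 antigen presentation genes above the filter, 17 had at least 1 TPM in both untreated libraries. Among these, 6 were higher (35.3%) and 1 lower (5.88%) in both LPS libraries, against 12.5% and 38.2% of all genes of that kind.

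The difference of the first LPS library followed transcript length, as estimated from the TPM of 1 read. Genes were split into 5 bins of equal number with median lengths of 1254, 2232, 3202, 4497 and 7169 bases. The median difference of the first LPS library from the untreated mean was 0.35 in the shortest bin, then -0.73, -1.10, -1.11 and -0.98. In the second LPS library the medians ran from 0.07 in the shortest bin to -0.11 in the longest, and in each untreated library they stayed within 0.03 of 0. Of the 22 genes apart by 2-fold and higher, 20 were in the shortest bin and 2 in the next. The 53 lower genes were 21, 20, 7, 3 and 2 by bin, from shortest to longest. CCL4, CXCL10, TNFAIP6, CCL3 and NFKBIA all belonged to the shortest bin. Relative to the median of that bin, NFKBIA was 1.15 higher in the first LPS library and 1.42 higher in the second, and CXCL10 was 4.55 and 4.77 higher. Outside the shortest bin, SOD2 (longest bin) was 1.60 and 0.67 higher than genes of like length, and PLAUR (next shortest) 2.80 and 1.01. With only the trend of each library removed, 7 genes were apart and higher and 71 lower. Of these, 6 and 50 were shared with the counts as deposited. With the trend and the level of each library removed, an alternative added after the data were seen, 21 genes were apart and higher and 45 lower, 16 and 39 of them shared with the counts as deposited. In that setting NFKBIA and CCL3 passed the limma threshold (adjusted p = 0.0284 and 0.0437).

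**Figure D4:**
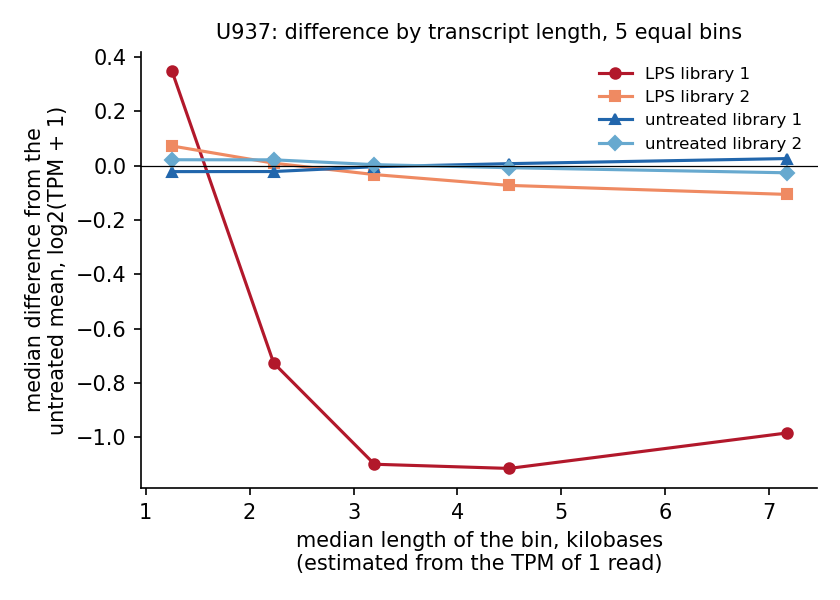
Median difference from the mean of the untreated libraries, log2(TPM + 1), by bin of transcript length (median length of the bin on the horizontal axis, kilobases). The first LPS library is at 0.35 in the shortest bin and near -1 in the longer ones, while the other 3 libraries stay close to 0.

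The genes farthest below their controls were of mixed function, and none of the 12 passed the test. COTL1, an actin-binding protein, had 66.3 and 62.9 TPM in the LPS libraries, against 274 and 264 TPM in the untreated ones. The values within each group were nearly equal, and the log2 change was -2.04 (SE 0.45, limma adjusted p = 0.27). NENF (neudesin), a secreted neurotrophic protein, had 15.1 and 9.50 TPM after LPS, against 72.6 and 61.1 TPM in untreated cells. POLRMT, the mitochondrial RNA polymerase, had 10.4 and 16.5 TPM after LPS, against 58.3 and 55.0 TPM in untreated cells. ICMT, which methylates prenylated proteins such as RAS, had 14.2 and 35.6 TPM after LPS, against 99.6 and 93.3 TPM in untreated cells. For these 3 the LPS libraries were below both controls, and the limma adjusted p-values were 0.27. SNHG25, a host gene of small nucleolar RNAs, was listed at 0 in both LPS libraries, against 24.1 and 5.41 TPM in the untreated ones, which were 5 and 2 reads. The others were KREMEN2, ARMC10, ZDHHC16, SDF4, DUSP1, NPAS1 and ALDH16A1. Under median-of-ratios scaling 9 of the 12 were still apart by 2-fold, all but ARMC10, ZDHHC16 and DUSP1, and the groups overlapped for none of the 12 under any scaling run.

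**Figure D5:**
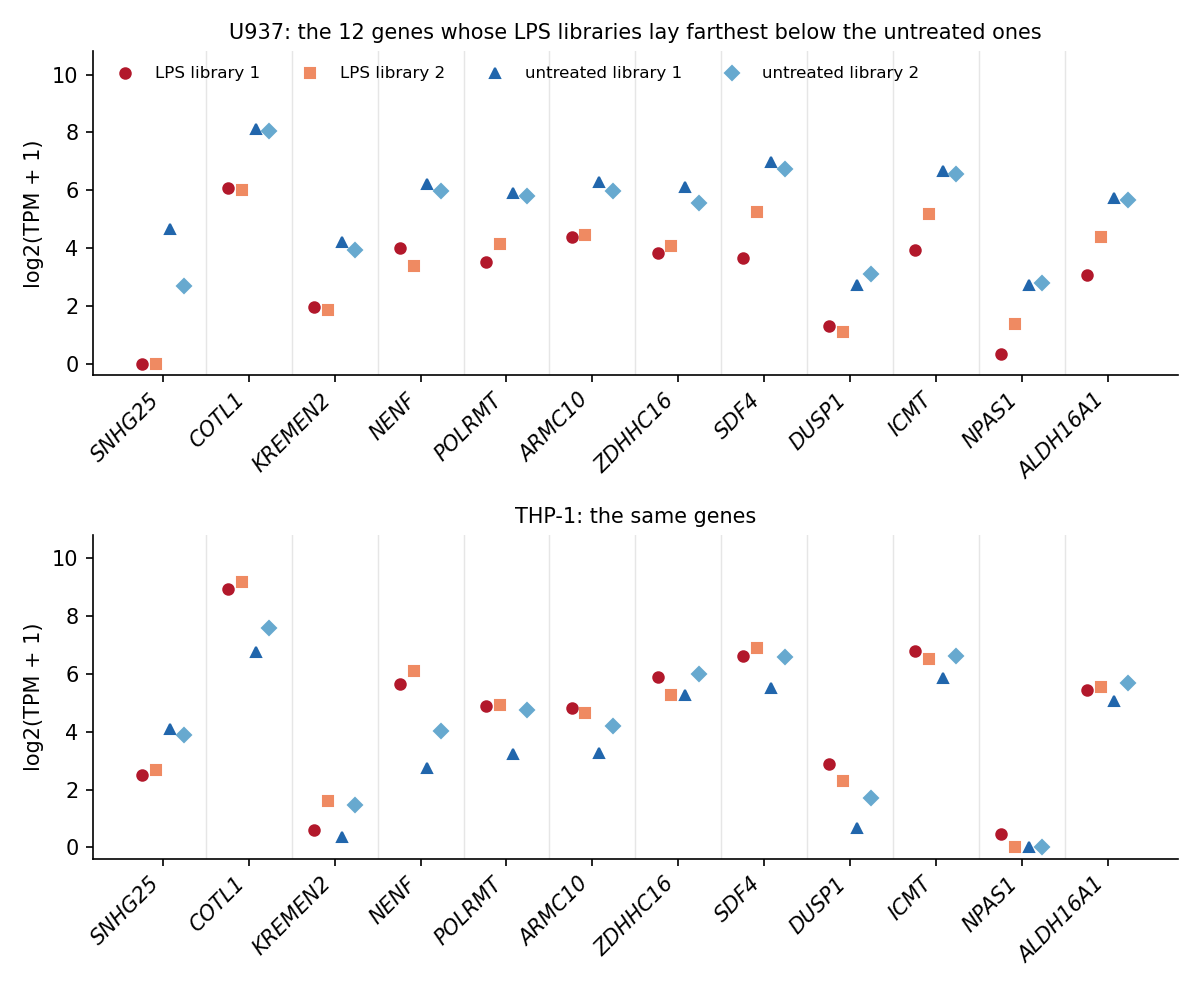
Level, as log2(TPM + 1), of the 12 genes whose LPS libraries lay farthest below the untreated ones in U937 (top), and of the same genes in THP-1 (bottom). Each point is 1 library. In U937 both LPS points lie below both untreated points for every gene, and in THP-1 this holds for SNHG25 only.

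THP-1, another human monocytic line, was measured in the same study with and without 4 h of LPS, at 1 µg/ml and in cells that carried dCas9-KRAB, a fusion used for gene repression, in treated and untreated cells alike. Dose and genotype therefore differ from U937. The 2 comparisons share no library. Among the 11211 genes, 49 were higher by 2-fold in both THP-1 LPS libraries (0.437%) and 7 lower (0.0624%). Both lines shared 7 higher genes, which were 31.8% of the U937 genes and 14.3% of the THP-1 genes. They were CCL3, CCL4, CCL20, CXCL10, IL4I1, NFKBIA and TNFAIP6. NFKBIA was at 213 and 187 TPM in LPS-treated THP-1, against 85.5 and 77.3 TPM in untreated THP-1. CXCL10 was at 30.3 and 24.3 TPM in treated THP-1 and listed at 0 in both untreated libraries. CXCL8, which was high in 1 of 2 U937 LPS libraries, had 27.8 and 14.1 TPM in treated THP-1, against 3.16 and 1.51 TPM in untreated THP-1. TNFAIP3 had 21.2 and 13.2 TPM in treated THP-1, against 3.04 and 3.59 TPM in untreated THP-1. IL1B reached 69.2 and 37.4 TPM in treated THP-1, against 3.60 and 6.37 TPM in untreated THP-1. CCL1, present in LPS-treated U937, was listed at 0 in all 4 THP-1 libraries.

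Of the 53 genes that were lower by 2-fold in U937, 1 (SNHG25) was also lower by 2-fold in THP-1. In THP-1 14 of the 53 (26.4%) were higher in both LPS libraries than in both untreated libraries, against 11.9% of all genes, and 3 were lower in both, against 25.4%. COTL1 had 493 and 585 TPM in treated THP-1, against 108 and 194 TPM in untreated THP-1. The difference of the 2 responses was tested in the limma fit as U937 minus THP-1. It passed for 1 gene (0.00892%), MIR221, which rests on the 3 reads given above and was at 0 in all 4 THP-1 libraries.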

How the data were processed

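RNA of 4 cell lines was sequenced from SmartSeq2 libraries. Per the submitters' processing notes, reads were aligned with TopHat2 to hg19. For the counting program, its gene annotation and all versions the sources used here give nothing. The deposited values, 1 file per library, are TPM from unique alignments as made by the authors. Each library was checked to hold the same 27311 gene symbols.

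From these, read numbers were worked back from the value of 1 read for 17860 of 19092 genes above 0 (93.5%, tolerance 0.0001 read). They gave depth and an alternative fit. Differences were computed on log2(TPM + 1), which understates the change of low genes. The test was limma 3.58.1 in R 4.3.3, with trended variance, all 16 libraries in 8 groups (8 residual degrees of freedom), two-sided, and Benjamini-Hochberg adjustment over 11211 genes. An exact permutation test of 2 against 2 libraries cannot go below a p of 1/3 and was not used. The fit and the recovery were tested on simulated data. The simulated LPS libraries had no length trend and the same spread as the other libraries, unlike the real ones. How the fit performs with a library like the first LPS library was therefore not tested. Lists, alternatives and this rule for names were chosen with earlier results of these data known: called genes, the 12 widest separations each way (mean of at least 5 TPM, no small RNA genes), leading members of 16 lists, and 10 genes of the LPS pathway. Alternatives covered pseudocount, filter, scaling, length, fit design and each library left out.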

Additional observations from a re-analysis of the deposited data

Results flagged for a closer look

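For 8 of the named genes, every U937 LPS library moved one way against both controls and every THP-1 LPS library the other way. For some of them the groups barely separated. Between the closest LPS and untreated libraries of THP-1, the log2(TPM + 1) difference was 0.002 for ACTB, 0.021 for SDF4 and -0.017 for ID2. For ACTB in U937 it was -0.016. LPS dose and genotype are not matched between the lines. The difference of the log2 changes, U937 minus THP-1, was -3.93 (SE 0.64) for COTL1 and -3.11 (SE 0.56) for DUSP1, each with a limma adjusted p of 0.20. It was -4.87 for NENF (adjusted p = 0.57), and for POLRMT -2.96, ARMC10 -2.70 and SDF4 -3.12 (adjusted p = 0.69 each). For 2 abundant genes of the lists it was 0.64 for ID2 and -0.76 for ACTB (adjusted p = 0.69 and 0.70). None of the 8 passed the threshold. In THP-1, the first untreated library was the lowest of the 4 for COTL1, NENF, POLRMT, ARMC10, SDF4 and DUSP1.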

How the results depend on the processing

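Against 3 genes called higher and 1 lower, 6 and 5 were called with a pseudocount of 5, and 11 and 3 with no filter on low values. With a minimum of 5 TPM 0 were called lower. Median-of-ratios scaling gave 6 higher, quantile normalization 9, and removal of both length trend and level 6. The U937 libraries alone gave 0 and 0, and library weights 1 and 0. The voom fit on recovered reads gave 0 lower, with 1097 lower at an unadjusted p under 0.05. Without 1 library the counts ranged from 2 to 782 higher and from 1 to 4552 lower, the highest without the second LPS library, where the first stands alone. With replicate number as a block in a paired fit the counts were 3 higher and 1 lower. Same-numbered libraries did not deviate together (r = -0.06 across genes), so the numbers were not taken to pair the libraries.

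Against 22 genes apart and higher and 53 lower, a pseudocount of 0.1 gave 46 and 111, and one of 5 gave 5 and 15. A minimum of 5 TPM gave 9 higher, median-of-ratios scaling 35 and 31, and quantile normalization 30 lower. Removal of the length trend gave 7 higher and 71 lower. Without 1 library they ranged from 47 to 333 higher and from 76 to 4225 lower, since fewer libraries then need to be apart.

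Among the named genes, 37 of 1005 alternative values changed sign. For HSP90B1 they were 0.48 (median-of-ratios), 0.14 (length trend), 0.50 (length trend and level) and 0.22 (voom), and without 1 library from -0.074 to 0.067. For IL18 they were 0.46 (median-of-ratios), 0.43 (quantile) and 0.23 (voom), and without 1 library up to 0.23. With the length trend removed, values were -0.54 for IFITM2, -0.30 for BST2, -0.46 for BATF, -0.43 for MT2A, -0.26 for B2M, -0.18 for PSMB10, -0.29 for PYCARD, -0.31 for CTSG, -0.54 for ELANE, -0.42 for PCNA, -0.15 for CCNB2 and -0.54 for LY96. With the level removed too they were -0.18 for IFITM2, -0.093 for BATF, -0.060 for MT2A, -0.17 for ELANE, -0.057 for PCNA and -0.17 for LY96. Quantile normalization gave -0.055 for IFITM2 and -0.18 for PCNA. Without 1 library the values ranged from -0.024 to 0.33 for IFITM2, from -0.018 to 0.41 for BATF, from -0.14 to 0.18 for PCNA, from -0.18 to 0.55 for LY96, from -0.20 to 1.67 for TNFAIP3 and from -0.27 to 2.67 for CXCL8. The cause of these changes was not tested. Genes with few reads, such as TNFAIP6 and CCL1, are limited by depth.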
